A study of Mus musculus with 6 samples.

Results

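The 10 genes described here belong to the BCL2 family, which decides whether a cell's mitochondria release the factors that start apoptosis. They are Bcl2, Bcl2l1, Mcl1, Bax, Bbc3, Bcl2l11, Pmaip1, Bid, Bik and Bmf, and they were taken by their symbols from a table of 55809 gene symbols, of which all 10 were in the table and 25563 had a count in any library. The RNA came from 410.4 cells, a mouse mammary carcinoma cell line, in 2 groups of 3 libraries each. The first group, called NETs, was grown for 2 days in a low-serum medium (0.5%) into which neutrophil extracellular traps had been collected. The second, called control, was grown for the same time in the low-serum medium alone. Neutrophil extracellular traps are strands of chromatin with granule proteins that neutrophils throw out. All groups thus shared the cell line and the low serum. The series asks about TGF-beta activation by neutrophil extracellular traps in metastatic cells, and the comparison here asks how the messenger RNA of the death-controlling genes differed between the media.

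Within the family, the guardians BCL2, BCL-XL (from Bcl2l1) and MCL1 hold the effectors BAX and BAK in check at the outer mitochondrial membrane. The BH3-only proteins, among them PUMA (from Bbc3), BIM (from Bcl2l11), NOXA (from Pmaip1), BID, BIK and BMF, bind the guardians or the effectors and so tip a cell towards death. In the mammary gland BIM and BMF are known for removing cells that lose contact with their matrix. Much of the family's control acts on proteins, which were not measured here.

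Each library held between 31119105 and 64431811 counts. Over all genes, 38.9% of 13956 tested genes differed between the media at an adjusted p under 0.05 (edgeR's quasi-likelihood test, Benjamini-Hochberg adjustment over all tested genes), 20.2% higher and 18.7% lower with NETs. Higher genes made up 52.0% of the calls, and 35.9% when libraries were scaled by size alone. All 5 epithelial markers had counts. Their summed level was 3064 to 3268 CPM in NETs libraries and 3255 to 3472 CPM in control libraries. CPM is the count scaled to a common library total with TMM factors. With NETs, Krt18 and Cdh1 were lower (984 against 1190 CPM and 570 against 629 CPM, adjusted p = 0.000377 and 0.0281). Krt8 was higher (700 against 587 CPM, adjusted p = 0.000491), and Epcam and Krt19 were not called. These calls are 20% higher and 40% lower, against 20.2% and 18.7% of all tested genes. Of 12 neutrophil markers 6 had no count in any library, among them Elane, Camp and Ngp, and the list summed to 2.99 to 3.37 CPM with NETs and 1.62 to 2.23 CPM in control medium. Its gene S100a8 rose to 2.63 ± 0.148 CPM with NETs, against 1.38 ± 0.300 CPM in control medium (adjusted p = 0.00136), and Cxcr2 had 0.481 CPM with NETs and 0.220 CPM in control medium (adjusted p = 0.0575). The others with a count were lower with NETs and too low to be tested. S100a9 had 0.0730 CPM with NETs and 0.109 CPM in control medium. Ly6g, Itgam and Mpo had 0 with NETs and 0.121, 0.0516 and 0.0100 CPM in control medium. The macrophage list of 6 summed to 112 to 119 CPM with NETs and 55.4 to 60.9 CPM in control medium. Its gene Csf1r had 80.2 ± 5.30 CPM with NETs and 24.1 ± 1.43 CPM in control medium (SD, n = 3 each), with the defining marker Adgre1 at 0 throughout and Ptprc at 0 in the NETs libraries. Lyz2 had 0 with NETs and 0.0242 CPM in control medium. Cd68 had 10.7 CPM with NETs and 12.4 CPM in control medium, and Cd14 had 23.6 and 20.7 CPM, neither of them called. The fibroblast list of 6 summed to 59.3 to 68.0 CPM with NETs and 42.8 to 48.7 CPM in control medium, with Dcn and Lum at 0. Its gene Col1a1 rose to 13.4 ± 2.48 CPM with NETs, against 1.18 ± 0.129 CPM in control medium (adjusted p = 2.34e-11), and Pdgfra had 49.2 CPM with NETs and 45.4 CPM in control medium (adjusted p = 0.164). Col1a2 had 0.0742 CPM with NETs and 0.0295 CPM in control medium, and Pdgfrb 0.0499 and 0.0321 CPM, both too low to be tested. The part of such cells in the results was not tested. The labels do not say whether the 3 libraries of a group came from separate cultures, so the p-values measure the spread between libraries, which may be technical. In bulk RNA a change in the share of cells and a change in the RNA per cell cannot be told apart, and NETs cannot be told apart from other differences in the medium.

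With NETs, 2 of the 10 genes rose, Bmf and Bcl2, and 4 fell, Bbc3, Bcl2l11, Mcl1 and Bcl2l1. The effector Bax and the BH3-only gene Bid did not pass the test, Bik had at most 6 counts in a library, and Pmaip1 had none. The call of Bcl2 was lost under 6 of 15 alternatives, so 1 gene rose in those, while the other 5 calls held in all 15. Of the 8 genes with enough counts to be tested, 6 passed, a share to be read against the 38.9% of all tested genes. The 2 that rose are 25% of the 8 and the 4 that fell 50%, against 20.2% and 18.7% of all tested genes. For those 6 genes no NETs library overlapped a control library in CPM, against 49.0% of all tested genes (24.4% higher and 24.5% lower). The median log2 fold change of the 8 was -0.11, and that of all tested genes was 0.00. The changes were of moderate size, from 1.63-fold lower for Bbc3 to 1.46-fold higher for Bmf. Among the genes called lower, 21.4% changed by more than Bbc3 and 75.6% by more than Bcl2l1. Among the genes called higher, 34.7% changed by more than Bmf and 74.4% by more than Bcl2.

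**Figure D1:**
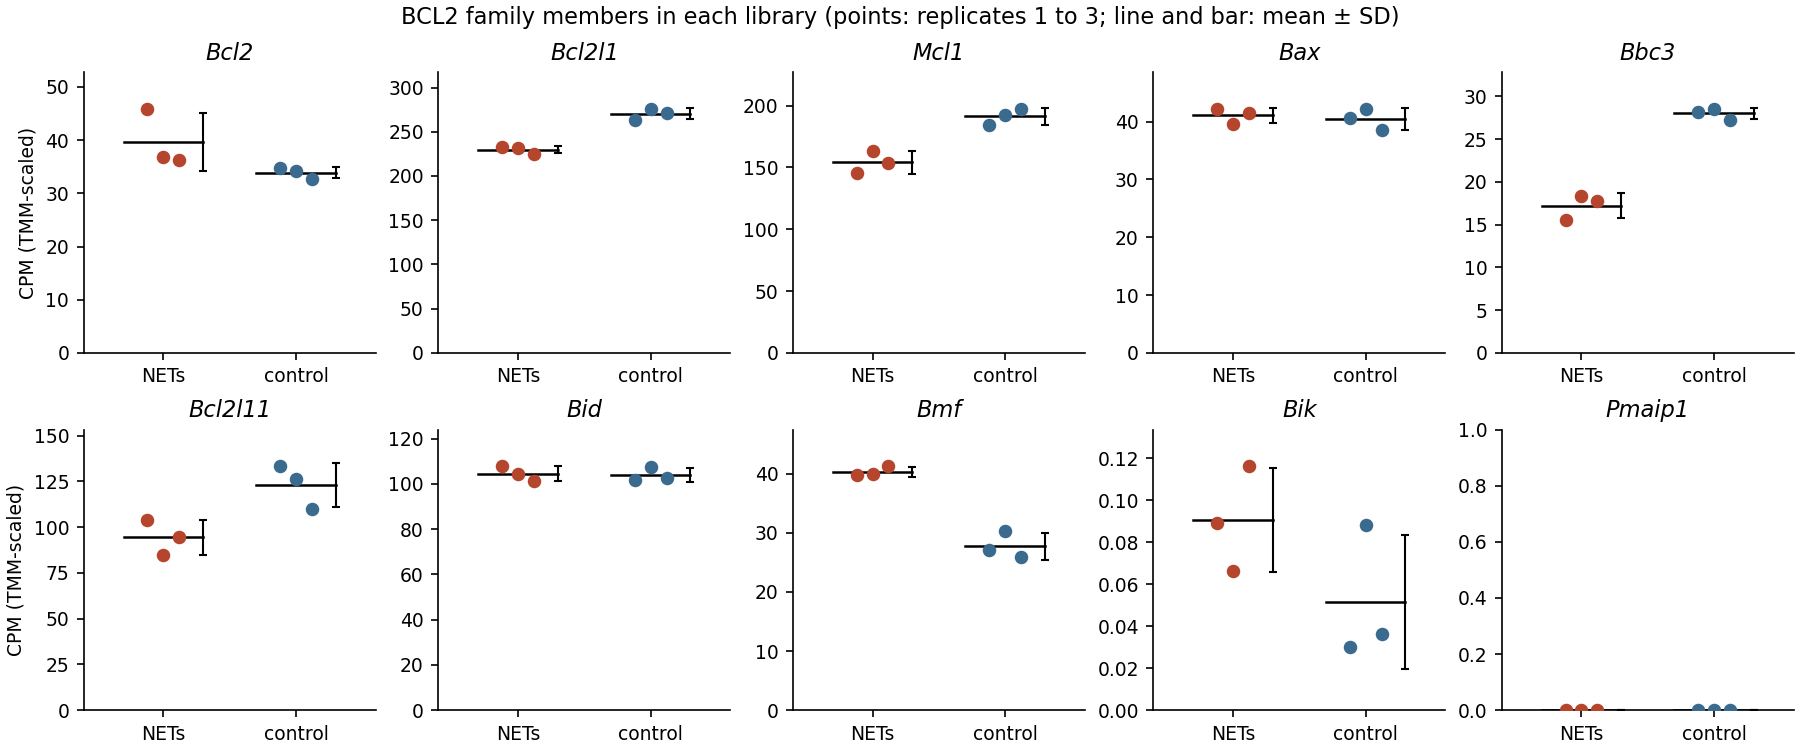
TMM-scaled CPM (vertical axis, from 0, a separate scale for each gene) of the 10 genes in the 3 NETs libraries (red, left) and the 3 control libraries (blue, right), with the mean and SD. Bbc3 lies between 15.6 and 18.4 CPM with NETs against 27.3 to 28.5 CPM in control medium, the widest relative gap of the 10, while the points of Bax and Bid overlap.

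Among the guardians, Bcl2l1 encodes the long-lived death inhibitor BCL-XL. Its level was 233, 231 and 225 CPM in NETs replicates 1 to 3, against 264, 276 and 272 CPM in control replicates 1 to 3. The NETs libraries were all lower, and each group kept within a narrow band. The mean was 229.9 ± 3.95 CPM with NETs and 270.4 ± 6.20 CPM in control medium (SD, n = 3 each), a log2 fold change of -0.23 ± 0.05 (SE; adjusted p = 0.000582 in edgeR).

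Mcl1 encodes the short-lived guardian MCL1, a protein that is degraded quickly. It stood at 145, 163 and 153 CPM in the NETs libraries, against 184, 193 and 197 CPM in the control libraries. Every NETs library lay below every control library, and Mcl1 fell by 0.31 ± 0.05 on the log2 scale (SE; adjusted p = 0.000135 in edgeR).

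Bcl2, the founding guardian, stood at 45.9, 36.7 and 36.3 CPM with NETs, against 34.8, 34.2 and 32.8 CPM in control medium. NETs replicate 1 lay far above the other libraries, and the gap between the remaining NETs libraries and the control libraries was small. Bcl2 rose by a log2 fold change of 0.23 ± 0.08 (SE; adjusted p = 0.0339 in edgeR). This call ended without NETs replicate 1 (log2 fold change 0.10, adjusted p = 0.248), and also without control replicate 1 (0.25, adjusted p = 0.0630), control replicate 2 (0.23, adjusted p = 0.0778) or control replicate 3 (0.20, adjusted p = 0.0917). It also ended with upper-quartile scaling (0.20, adjusted p = 0.0522) and with library size alone (0.16, adjusted p = 0.156). Exons of Bcl2 overlap those of D630008O14Rik on the other strand over 558 bases of 9157, but that gene had at most 2 counts in a library.

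Bax, whose protein forms pores in the outer mitochondrial membrane, had 42.2, 39.7 and 41.5 CPM with NETs, against 40.5, 42.2 and 38.5 CPM in control medium. The groups overlapped. The log2 fold change of 0.03 had a 95% interval from -0.10 to 0.15 (adjusted p = 0.761 in edgeR).

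Bbc3 encodes PUMA, a BH3-only protein that binds every guardian and is known as a target of p53 and of FOXO factors. Its level was 15.6, 18.4 and 17.7 CPM with NETs, against 28.2, 28.5 and 27.3 CPM in control medium. The highest NETs library was well under the lowest control library. Bbc3 averaged 17.2 ± 1.45 CPM with NETs and 28.0 ± 0.663 CPM in control medium (SD, n = 3 each), and fell by 0.70 ± 0.07 on the log2 scale (SE; adjusted p = 9.29e-07 in edgeR), the largest change in the list.

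Bcl2l11 encodes BIM, which is known to be induced when survival signals are lost. It had 104, 85.1 and 94.5 CPM with NETs, against 133, 126 and 109.8 CPM in control medium. The groups did not overlap, but NETs replicate 1 came close to control replicate 3, and the SD was 9.54 CPM with NETs and 12.1 CPM in control medium, against 3.34 and 3.05 CPM for Bid at a like level. Bcl2l11 fell by 0.38 ± 0.08 on the log2 scale (SE; adjusted p = 0.00226 in edgeR).

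Bmf encodes a BH3-only protein that is held at the actin and myosin motor complexes of healthy cells. It went the other way, with 39.7, 39.9 and 41.3 CPM with NETs, against 27.1, 30.2 and 25.9 CPM in control medium. The NETs libraries agreed closely and all lay above the control libraries. Bmf averaged 40.3 ± 0.852 CPM with NETs and 27.7 ± 2.26 CPM in control medium (SD, n = 3 each), and rose 1.46-fold (log2 fold change 0.54 ± 0.07 SE; adjusted p = 5.15e-06 in edgeR).

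Bid, whose protein is cut by caspase-8 and carries death receptor signals to the mitochondria, had 108, 104 and 101 CPM with NETs, against 102, 107 and 102 CPM in control medium. The log2 fold change was 0.01, with a 95% interval from -0.09 to 0.11 (adjusted p = 0.903 in edgeR). Exons of Bid overlap those of its neighbour Bcl2l13 on the other strand over 628 bases of 3550, and Bcl2l13 had up to 6870 counts in a library. Where the counting ignored strand, reads over the overlap may have been dropped or given to the wrong gene.

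Bik, whose BH3-only protein sits at the endoplasmic reticulum, had 4, 2 and 6 counts in NETs replicates 1 to 3 and 2, 4 and 2 counts in control replicates 1 to 3. These counts are at or under the limit of 6 counts (3 fragments, since mates of a pair appear to have been counted separately), and no fold is given. Pmaip1, the gene of the MCL1-binding protein NOXA, had 0 counts in all 6 libraries, which allows a level of up to 0.0902 to 0.199 CPM (TMM-scaled) depending on the library, counting error only. The other 8 genes of the list were between 15.6 and 276 CPM in every library.

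The positions of the table, counted from 1, place Bmf, Bcl2l11 and Bcl2l1 on chromosome 2 (118359238 to 118380168, 127967958 to 128004467 and 152622588 to 152673648), Bbc3 and Bax on chromosome 7 (16042318 to 16052130 and 45111121 to 45116322), Bcl2 on chromosome 1 (106465908 to 106642004), Mcl1 on chromosome 3 (95566099 to 95570487) and Bid on chromosome 6 (120868891 to 120893814). The spans cover exons and introns, and counts are over exons. The submitters' processing notes name mm10, which is GRCm38, but of 38929 symbols on the same chromosome in both, 11.6% overlapped their GRCm38 span, so the build of these positions is not settled.

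**Figure D2:**
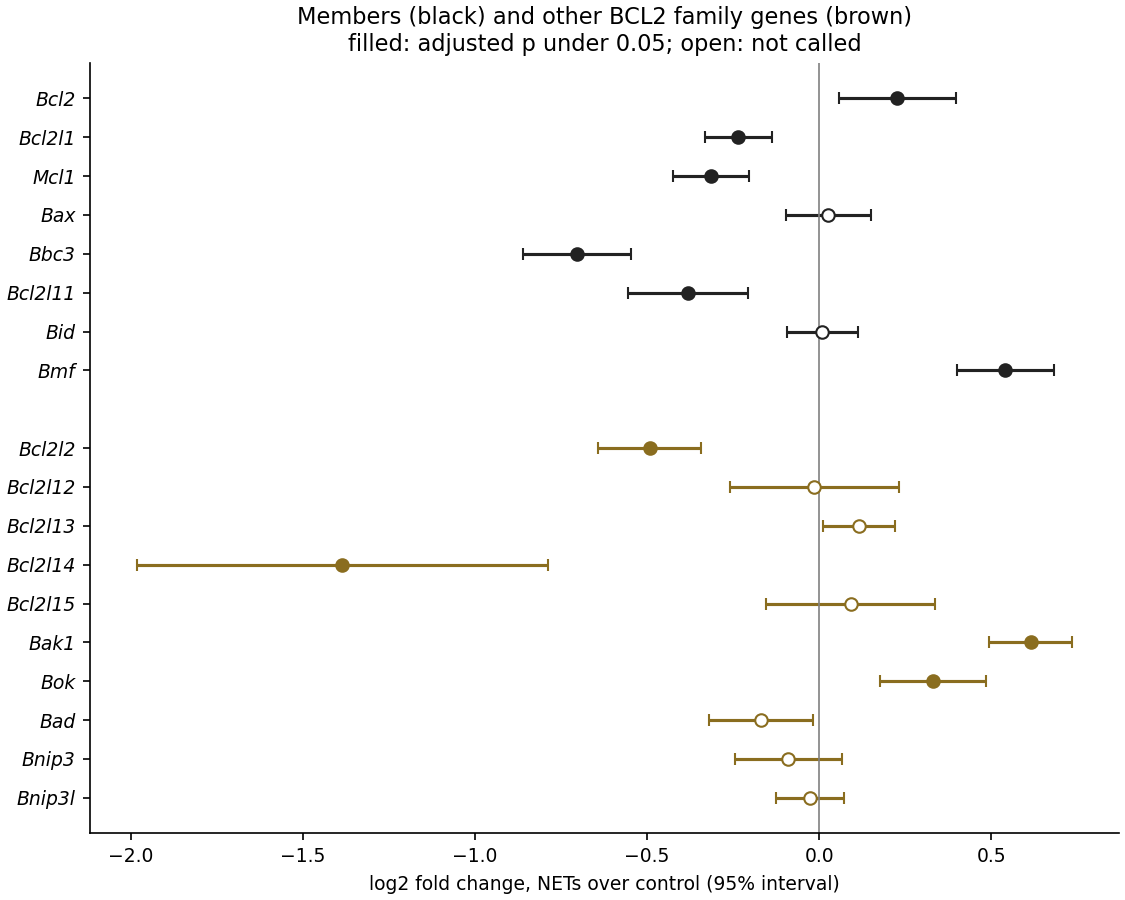
Log2 fold change of NETs over control medium (horizontal axis) with its 95% interval for the 8 tested genes of the list (black) and 10 other tested genes of the family (brown), where filled points passed an adjusted p of 0.05. Bbc3 lies at -0.70 and Bmf at 0.54, and the effector Bak1 lies at 0.61 while Bax lies at 0.03.

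The promoters of the BH3-only genes Bbc3, Bcl2l11 and Bmf are shown because these genes changed most and in opposite directions. Windows of 300 bases, from 250 before to 50 after an annotated transcript start, come from a table of RefSeq starts on GRCm38.p6, and windows of 8 of the 10 genes were used here. Capitals mark either the FOXO core GTAAACA (read on both strands, as TGTTTAC on the other) or a p53-type core pair, 2 of CAAG or CATG or CTAG or CTTG with 6 bases between them. Of 32851 such windows in the table, 3.65% held the FOXO core and 7.22% held a core pair. Neither motif overlapped another one in the windows shown, and a match is a description of letters, not of binding.
Bbc3, upstream window, chr7:16309333-16309632, plus strand: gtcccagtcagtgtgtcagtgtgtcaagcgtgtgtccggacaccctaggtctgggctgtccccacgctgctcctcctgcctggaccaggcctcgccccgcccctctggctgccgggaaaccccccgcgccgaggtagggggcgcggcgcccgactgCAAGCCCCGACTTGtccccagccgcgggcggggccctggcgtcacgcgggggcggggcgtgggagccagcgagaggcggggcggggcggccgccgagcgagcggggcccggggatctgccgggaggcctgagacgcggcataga
Bbc3, middle window, chr7:16310011-16310310, plus strand: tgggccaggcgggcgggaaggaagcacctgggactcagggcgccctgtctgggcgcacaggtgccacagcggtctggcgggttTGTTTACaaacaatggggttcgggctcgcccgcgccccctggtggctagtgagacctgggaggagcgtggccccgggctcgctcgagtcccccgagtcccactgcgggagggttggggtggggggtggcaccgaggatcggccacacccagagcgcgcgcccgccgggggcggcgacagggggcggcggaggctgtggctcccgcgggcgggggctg
Bcl2l11, upstream window, chr2:128125788-128126087, plus strand: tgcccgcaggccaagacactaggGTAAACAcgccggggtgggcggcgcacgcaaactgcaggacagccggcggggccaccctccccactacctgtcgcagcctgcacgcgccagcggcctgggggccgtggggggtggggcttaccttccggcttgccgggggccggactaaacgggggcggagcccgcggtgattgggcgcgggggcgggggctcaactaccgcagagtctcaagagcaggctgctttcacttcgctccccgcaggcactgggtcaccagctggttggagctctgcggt
Bmf, upstream window, chr2:118549637-118549936, minus strand: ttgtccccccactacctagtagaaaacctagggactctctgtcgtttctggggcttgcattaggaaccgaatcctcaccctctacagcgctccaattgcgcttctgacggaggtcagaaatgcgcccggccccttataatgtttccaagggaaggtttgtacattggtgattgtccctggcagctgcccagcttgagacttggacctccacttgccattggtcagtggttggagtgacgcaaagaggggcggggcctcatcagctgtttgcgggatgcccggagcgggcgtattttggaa
The upstream window of Bbc3 held a core pair that begins at position -94 from the start, and its middle window held the FOXO core at position -167. The upstream window of Bcl2l11 held the FOXO core at position -227. Bmf had neither motif in any of its 3 windows, and neither did the windows of Bcl2, Bcl2l1, Mcl1, Bax and Bid. The SMAD box CAGAC (both strands) was found in 49.6% of all windows and in 5 of the 15 windows of the list, among them 1 of Bmf and 2 of Bbc3. These motifs were chosen with earlier results of these data known.

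Counts divided by exon length put the genes on one scale. In CPM per kilobase, the order within both groups was Bcl2l1, Mcl1, Bid, Bax, Bcl2l11, Bbc3, Bmf, Bcl2, Bik and Pmaip1. Bcl2l1 had 50.1 ± 0.861 CPM per kilobase with NETs and 59.0 ± 1.35 in control medium, and Mcl1 had 45.1 ± 2.64 with NETs and 56.0 ± 1.98 in control medium (SD, n = 3 each). These guardians did not overlap with one another in the NETs libraries and did overlap in the control libraries. Bid (29.4 ± 0.940 with NETs and 29.2 ± 0.859 in control medium) lay above Bax (26.1 ± 0.832 and 25.6 ± 1.18) in every library.

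Bcl2l11 had 11.8 ± 1.19 CPM per kilobase with NETs and 15.3 ± 1.51 in control medium, and Bbc3 had 8.11 ± 0.682 with NETs and 13.2 ± 0.312 in control medium. Bmf had 7.67 ± 0.162 with NETs and 5.28 ± 0.430 in control medium. Bbc3 and Bmf overlapped in the NETs libraries and stood apart in the control libraries. Bcl2 came last of the well-measured genes at 4.33 ± 0.590 CPM per kilobase with NETs and 3.70 ± 0.112 in control medium. The lengths are those of all annotated exons together (9157 bases for Bcl2 and 1576 for Bax), so a gene whose cells use only short transcripts is placed too low.

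**Figure D3:**
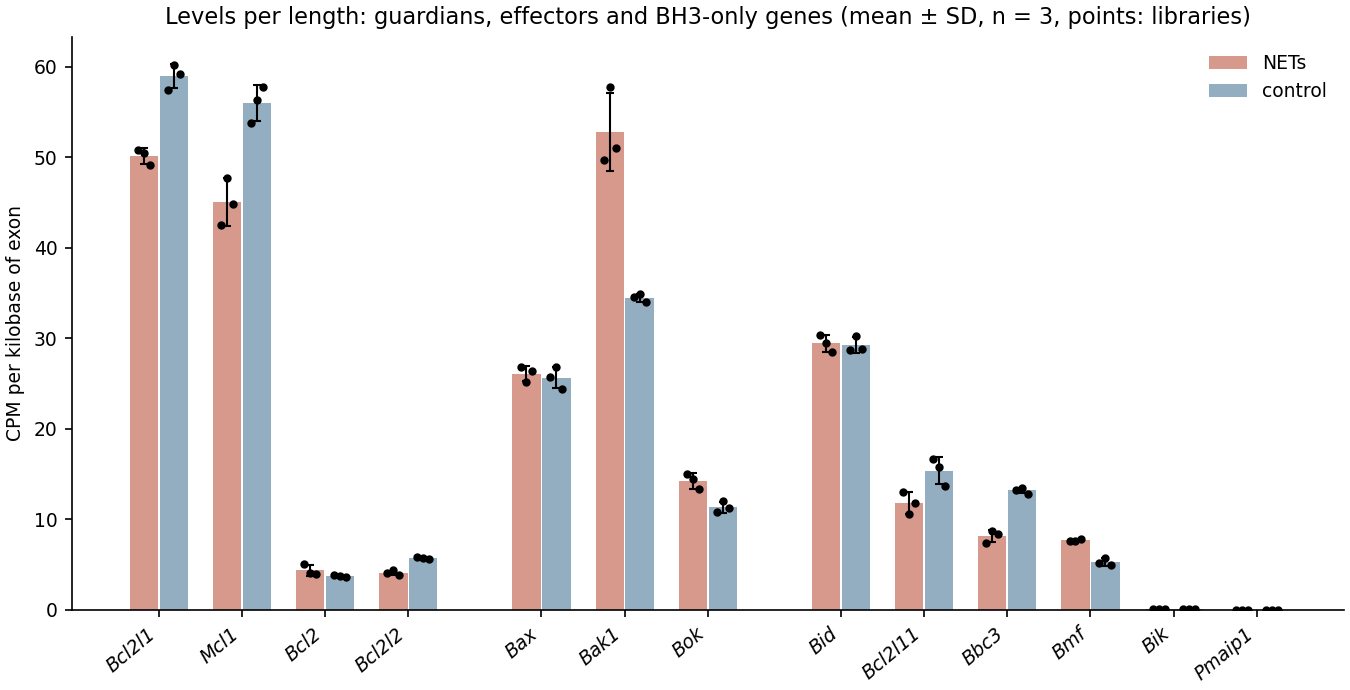
CPM per kilobase of exon (vertical axis, bars from 0) for the guardians on the left, the effectors in the middle and the BH3-only genes on the right, with NETs (red) left of control (blue); bars are means, error bars SD over 3 libraries and points single libraries. Bcl2l1 and Mcl1 stand above all other members in both media, and Bak1 reaches 52.8 CPM per kilobase with NETs against 34.5 in control medium.

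Ratios within a library describe how the listed genes of the classes stood to one another, and no test was made of them. The guardians Bcl2, Bcl2l1 and Mcl1 added together were 3.67, 4.06 and 3.72 times Bax per length in NETs replicates 1 to 3, against 4.48, 4.49 and 4.94 times in control replicates 1 to 3. All NETs libraries were below all control libraries. Against the BH3-only genes of the list added together, these guardians stood at 1.69, 1.82 and 1.73 times with NETs. They stood at 1.81, 1.84 and 2.00 times in control medium, so here the groups overlapped. Bad, a BH3-only gene outside the list, was not in the sum. It had 9.51 CPM per kilobase with NETs and 10.7 in control medium. The effector gene Bak1 and the guardian gene Bcl2l2 are also outside the list and were left out. Bak1 had 52.8 CPM per kilobase with NETs and 34.5 in control medium, above Bax in both. The ratio to Bax therefore does not describe the effectors as a class. Bcl2l2 was lower with NETs, at 18.1 CPM against 25.4 CPM in control medium. The summed guardians were 99.5 ± 2.37 CPM per kilobase with NETs and 118.7 ± 3.05 in control medium, and the summed BH3-only genes 57.0 ± 1.11 with NETs and 63.1 ± 2.52 in control medium (SD, n = 3 each). Both sums were lower in every NETs library than in every control library. Without division by length, the BH3-only sums overlapped.

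Among the BH3-only genes of the list, taken as a class without Bad, the shares of Bbc3 and Bmf differed between the media. Bbc3 made up 12.6%, 15.4% and 14.8% of the class per length in the NETs libraries, against 20.8%, 20.6% and 21.3% in the control libraries. Bmf made up 13.0%, 13.5% and 13.9% with NETs, against 8.10%, 8.83% and 8.16% in control medium. The ratio of Bmf to Bbc3 per length was 1.03, 0.877 and 0.942 with NETs, against 0.389, 0.428 and 0.384 in control medium. Bid was the largest contributor in every library, with 50.4% to 52.3% with NETs and 45.0% to 47.8% in control medium.

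Of 15 further genes of the family 10 passed the low-count filter, of which 2 rose and 2 fell. That is 20% each way, against 20.2% and 18.7% of all tested genes. Bak1, the gene of BAK, the other pore-forming effector, had 119.6, 139 and 123 CPM with NETs, against 83.3, 83.9 and 81.8 CPM in control medium. All NETs libraries were higher, and Bak1 rose 1.53-fold (log2 fold change 0.61; adjusted p = 2.02e-07 in edgeR). Bok, an effector-like gene, rose 1.26-fold (adjusted p = 0.00154). The ratio of Bak1 to Bax per length was 1.86, 2.29 and 1.94 with NETs, against 1.34, 1.30 and 1.39 in control medium. Bcl2l2, the guardian BCL-W, was lower at 18.1 ± 1.12 CPM with NETs and 25.4 ± 0.468 CPM in control medium (1.41-fold lower, adjusted p = 2.95e-05). Bcl2l14 was 2.61-fold lower at a low level, 0.594 ± 0.166 CPM with NETs and 1.55 ± 0.171 CPM in control medium (adjusted p = 0.000854). The list's median log2 fold change was -0.02, and Bad, Bnip3, Bnip3l, Bcl2l12, Bcl2l13 and Bcl2l15 did not pass. The near-identical copies Bcl2a1a, Bcl2a1b and Bcl2a1d had no count, which is uncertain because reads that fit several copies may have been dropped.

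Downstream of the family, cytochrome c and the apoptosome activate the caspases. Of 15 genes on this list 1 rose and 3 fell (6.67% and 20%, against 20.2% and 18.7% of all tested genes). The median log2 fold change was -0.09. Dffa and Dffb, the inhibitor and the nuclease that cuts DNA in dying cells, were 1.38-fold and 1.68-fold lower (adjusted p = 5.89e-05 and 0.00543 in edgeR). Casp6 rose 1.23-fold, a call that ended without NETs replicate 3 or control replicate 1 (log2 fold changes of 0.28 and 0.27). The count that rose in this list was 0 in those fits, and 2 without NETs replicate 1, with the replicate block and with the filter of at least 1 CPM in 3 libraries.

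Of 10 tested genes that block caspases or death receptors 3 rose and 1 fell, with a median log2 fold change of 0.11. These are 30% and 10%, against 20.2% and 18.7% of all tested genes. Xiap, the direct caspase inhibitor, had 130.4, 116 and 131 CPM with NETs, against 186, 174 and 181 CPM in control medium, and was 1.43-fold lower (adjusted p = 8.14e-07 in edgeR). Cflar, the gene of the caspase-8 decoy FLIP, rose 1.16-fold (adjusted p = 0.00589), as did Faim (1.16-fold) and Ripk1 (1.12-fold). Library size alone ended the calls of both Faim and Ripk1. Faim was also lost without NETs replicate 2 or control replicate 1, and Ripk1 without NETs replicate 3, without control replicates 1 or 2 and with no low-count filter (log2 fold changes of 0.15 to 0.26 for Faim and 0.09 to 0.19 for Ripk1 over all alternatives). Scaled by library size alone, 1 gene of the list rose and 3 fell, and without control replicate 3 the count that fell was 2.

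Of 7 tested genes of the death receptor pathway 2 rose and 2 fell (median log2 fold change -0.01). That is 28.6% each way, against 20.2% and 18.7% of all tested genes. Tnfrsf21, a death receptor, rose 1.34-fold and Fas 1.24-fold, while the TNF receptor gene Tnfrsf1a was 1.29-fold lower (78.2 ± 1.21 CPM with NETs and 100.8 ± 3.33 CPM in control medium, adjusted p = 1.55e-05). The ligand gene Tnf was 1.37-fold lower at 4.09 ± 0.640 CPM with NETs and 5.64 ± 0.594 CPM in control medium. The call of Fas ended without NETs replicate 2, and that of Tnf without NETs replicates 1 or 2 or control replicate 2 (log2 fold changes of 0.24 to 0.35 for Fas and -0.60 to -0.37 for Tnf over all alternatives).

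Of 15 tested genes whose proteins act on BCL2 proteins or hold them 7 rose and 2 fell, against 20.2% and 18.7% of all tested genes, with a median log2 fold change of 0.13. In this list 1 gene fell when no low-count filter was used, and likewise when NETs replicate 1 or 3 or any 1 control replicate was left out. Sfn, the 14-3-3 sigma gene, rose 11.0-fold to 362 ± 23.2 CPM with NETs, against 32.8 ± 1.97 CPM in control medium (adjusted p = 1.11e-16). Dynll1, the dynein light chain that binds BIM, rose 1.30-fold to 143 ± 11.9 CPM with NETs, against 110.5 ± 1.82 CPM in control medium (adjusted p = 5.39e-05). The BAG family chaperone partners Bag1 and Bag3 rose 1.27-fold and 1.34-fold.

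**Figure D4:**
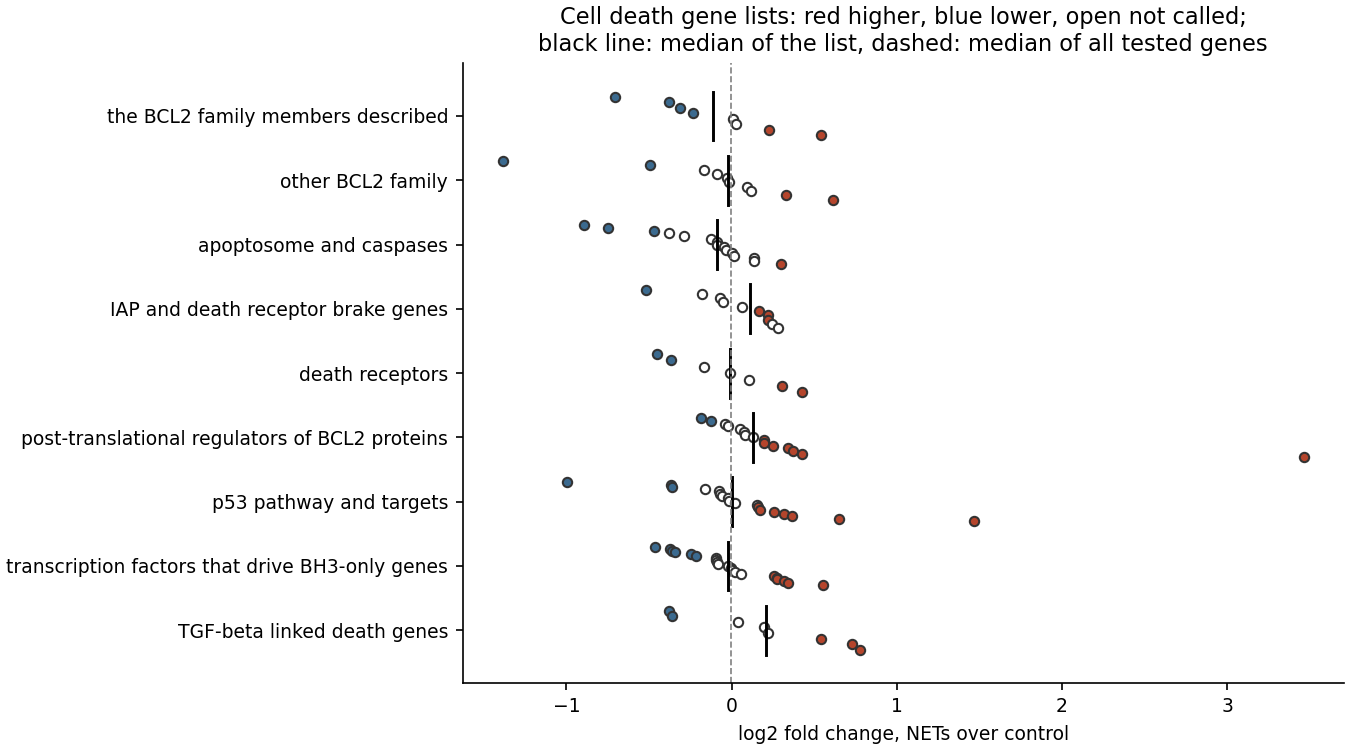
Log2 fold change of NETs over control medium (horizontal axis) for every tested gene of the members' list and of 8 further cell death lists (rows), red where called higher, blue where called lower and open where not called; black lines are list medians. The medians lie between -0.11 and 0.21, and Sfn at 3.46 and Ddit4 at 1.47 stand apart on the right.

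Genes around p53, the factor known to drive Bbc3, Bax and Pmaip1, moved both ways. Of 18 tested genes on the list 7 rose and 3 fell (38.9% and 16.7%, against 20.2% and 18.7% of all tested genes). The median log2 fold change was 0.00. Trp53 itself rose 1.19-fold to 111 ± 2.40 CPM with NETs, against 92.9 ± 5.47 CPM in control medium (adjusted p = 0.00103). Ddit4, a brake on mTOR that many stresses induce, rose 2.77-fold (adjusted p = 4.23e-11) and Phlda3 1.57-fold. Plk3 was 2.00-fold lower (50.5 ± 2.10 CPM with NETs and 101 ± 9.28 CPM in control medium, adjusted p = 2.58e-09) and Trp53inp1 1.28-fold lower.

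Of 21 tested transcription factors known to drive BH3-only genes 5 rose and 6 fell (median log2 fold change -0.02). These are 23.8% and 28.6%, against 20.2% and 18.7% of all tested genes. Foxo1 rose 1.47-fold to 47.8 ± 0.990 CPM with NETs, against 32.6 ± 2.37 CPM in control medium (adjusted p = 2.00e-06), and Runx1 rose 1.27-fold. Smad3 and Jun were 1.30-fold and 1.38-fold lower (adjusted p = 2.37e-05 and 4.26e-05). A short list of death genes linked to TGF-beta held 3 higher and 2 lower genes among 8 tested, 37.5% and 25% (median log2 fold change 0.21). It includes Bmf and Bcl2l11, which moved apart. Gadd45b rose 1.71-fold and Dapk2, a calmodulin-regulated death kinase, rose 1.66-fold, while Klf10 was 1.28-fold lower and Dapk1 had 3.09 ± 0.431 CPM with NETs and 2.66 ± 0.504 CPM in control medium (adjusted p = 0.377).

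The tested gene outside these lists with the most similar profile was sought for each of the 6 genes that passed, by the root mean square difference of log2 CPM over the 6 libraries after centring. It was Mcat for Bcl2 (0.0394), Urgcp for Bcl2l1 (0.0155), Gphn for Mcl1 (0.0156), Cxcr3 for Bbc3 (0.0375), Pgap3 for Bcl2l11 (0.0333) and Tbc1d16 for Bmf (0.0281). Within 0.1 of Bbc3 lay 81 genes, against 2214 genes within 0.1 of Bcl2l1, whose change was small. The nearest genes had like log2 fold changes, such as -0.70 for both Cxcr3 and Bbc3, and 0.56 for Tbc1d16 against 0.54 for Bmf. The distance thus reflects the fold between the groups, and shared regulation was not tested. The other counts were 217 for Bcl2l11, 285 for Bmf, 373 for Bcl2 and 1017 for Mcl1.

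**Figure D5:**
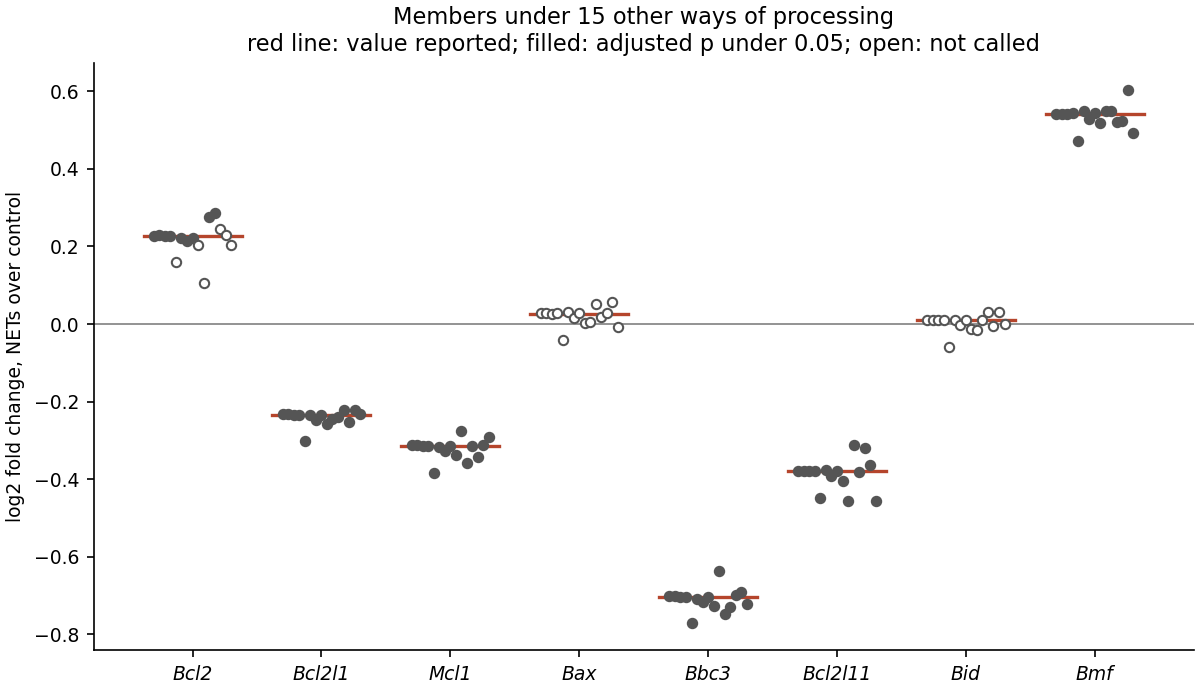
Log2 fold change of NETs over control medium (vertical axis) of the 8 tested genes under 15 other ways of processing (points; filled where the adjusted p was under 0.05), with the reported value as a red line. Bbc3, Bcl2l11, Mcl1, Bcl2l1 and Bmf stay filled throughout, while 6 of 15 points of Bcl2 are open.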

How the data were processed

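Poly-A RNA of 6 samples of 410.4 cells was sequenced from stranded libraries, per the labels' protocols. The authors deposited whole-number counts per gene symbol in a featureCounts layout, used as deposited. STAR 2.7.10a, Subread 2.0.3 with featureCounts, and build mm10 are listed in the submitters' processing notes. No source used here gives the annotation release or the strand setting. Between 74.8% and 78.4% of counts from 1 to 20 were even, so mates of a pair appear to have been counted separately and a limit of 3 fragments was taken as 6 counts. The exon lengths of the deposited table (in bases) gave CPM per kilobase.

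Libraries were scaled by TMM, low genes were removed with filterByExpr (minimum count 10), and groups were compared with edgeR 4.0.16 (glmQLFit, robust, and glmQLFTest) in R 4.3.3 over 13956 genes, called at an adjusted p of 0.05. Intervals at 95% took the standard error as the size of the log2 fold change over the root of F. The common biological coefficient of variation was 0.0620. The fit was checked on simulated counts with known changes. The 15 alternatives were DESeq2 1.42.0, limma-voom (limma 3.58.1), RLE, upper-quartile or library-size scaling, no filter or 1 CPM in 3 libraries, a replicate block, halved counts, and leaving out each library.

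The 10 members, the gene lists and the tests were chosen with earlier results of these data known. The text names all members, up to 4 further genes of each list by the smallest p, and 1 nearest profile per called member, apart from 1 gene that is not reported here; other genes, such as Trp53 and the markers of other cell types, were named after their values were seen. Pairs of libraries within a group had a chi-square of 8.98 to 22.9 for each degree of freedom, above sampling noise. Mates counted separately would raise this value, and it cannot show whether the libraries came from separate cultures. All 6 libraries were kept as separate samples.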

Additional observations from a re-analysis of the deposited data

How the results depend on the processing

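Under 15 alternatives the directions and calls of Bbc3, Bcl2l11, Mcl1, Bcl2l1 and Bmf were kept, with log2 fold changes of -0.77 to -0.64, -0.46 to -0.31, -0.38 to -0.28, -0.30 to -0.22 and 0.47 to 0.60. With every alternative 4 of the 10 genes fell. The count of genes that rose was 1 with upper-quartile scaling and 1 with library size alone, and from 1 to 2 when 1 library was left out, in each case because Bcl2 was no longer called. Leaving out a library also leaves fewer samples to test. Bax turned to -0.042 with library size alone and to -0.0073 without control replicate 3. Bid turned to -0.014 with upper-quartile scaling, -0.059 with library size alone, -0.0032 with no low-count filter, -0.016 without NETs replicate 1, -0.0060 without control replicate 1 and -0.00041 without control replicate 3. Neither was called in any of these, and the cause was not tested. Leaving out 1 library gave -0.0073 to 0.056 for Bax and -0.016 to 0.032 for Bid. Over all genes the calls ranged from 2106 to 2969 higher and 2038 to 3763 lower. Of the counts of called genes over the lists, 223 stayed within 1.5 times and 17 did not, all of the 17 being counts of 3 or fewer, and of 20 levels per length 4 moved by more than 1 SD with library size alone.

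Deviations of samples with the same number in both groups had correlations of 0.12, -0.06 and 0.06 over genes for numbers 1 to 3. With 3 samples in a group, this cannot show whether samples with the same number were handled together. The main fit took them as unpaired. With the replicate block, 2969 genes rose and 2713 fell, and 2 of the 10 genes rose and 4 fell. Bik and Pmaip1 lie at or under the 6 counts that a library with none allows, and the cause of their low counts was not tested.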

Other observations

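Some genes that p53 is known to drive had few counts or none in both media. Pmaip1 and the death receptor gene Eda2r had no count in any of the 6 libraries, and the stress cytokine gene Gdf15 had 0, 0 and 0.0775 CPM in the NETs libraries, against 0.120, 0.0885 and 0.0363 CPM in the control libraries. Only control replicate 1 was above the limit that a count of 0 allows in its library, 0.0902 CPM on the same TMM scale. Other targets were present, with Mdm2 at 105 ± 8.98 CPM with NETs and 106 ± 2.55 CPM in control medium, and Cdkn1a at 66.6 ± 2.09 CPM with NETs and 59.6 ± 2.65 CPM in control medium. Cdkn1a rose (adjusted p = 0.0273 in edgeR) and Mdm2 did not pass (adjusted p = 0.878). The choice of these genes was made with their values known.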
